A study of Mus musculus with 9 samples.

Results

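The Zic genes encode zinc finger transcription factors of the same superfamily as the Gli factors of the hedgehog pathway. Their RNA was measured in 3 kinds of mouse culture by 8 probe sets of an Affymetrix whole-genome array. These were all the probe sets whose only gene symbol in the platform annotation is that of a Zic gene, and they covered 4 genes (Zic1, Zic2, Zic4 and Zic5) of the 18193 genes with a probe set of 1 symbol. The probe set that was brightest on average gave the value of a gene, and its others served as a check.

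The cultures were embryonic stem cells (ESCs), epiblast stem cells (EpiSCs) given IWP2 and EpiSCs given vehicle, with 3 arrays each that the labels call biological replicates, all of strain C57BL/6. ESCs stand for the naive pluripotent state and grew in N2B27 with LIF and Wnt3a. EpiSCs stand for the later, primed state of the epiblast and grew in the same base medium with Activin A and bFGF, so cell type and medium changed together. IWP2 blocks the acyltransferase Porcupine and with it the secretion of Wnt proteins, and the sources used here give neither its dose and duration nor the vehicle. Whether the replicates came from separate cell lines is not stated either, so the p-values measure the spread between these cultures.

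In the mouse embryo Zic genes act in the epiblast, the neural plate, the dorsal neural tube, the neural crest and the cerebellum. Zic2 is needed for a normal forebrain midline, and in frog embryos it can repress transcription driven by beta-catenin, the intracellular carrier of the Wnt signal. Zic5 works in neural tube closure and the neural crest, and Zic1 and Zic4 are best known from the dorsal neural tube and the developing cerebellum. The genes lie in pairs, Zic2 with Zic5 and Zic1 with Zic4, and Zic2 and Zic5 are commonly listed among genes of the primed state. The comparisons ask what IWP2 in EpiSCs, and what the naive against the primed cell type, went with in this family.

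The family held a bright pair and a pair near the floor of the array. Zic2 and Zic5 lay above the median of all probe set values (5.24 on the log2 scale) on every array, and both followed the same order of groups, lowest in ESCs and highest in EpiSCs with IWP2. All 4 probe sets of Zic1 and Zic4 were near the floor, with 35 of their 36 values below the lower quartile of all values (3.72) and the highest at 3.80.

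Array and label checks were as follows. Arrays of 1 group correlated at 0.997 to 0.998 over all probe sets. The naive marker Zfp42 was at 12.98 in ESCs, 2.47 in EpiSCs with IWP2 and 2.54 in EpiSCs with vehicle, and the primed marker Pou3f1 at 4.86 in ESCs, 9.87 with IWP2 and 10.08 with vehicle (mean log2 signals). The Y-linked gene Eif2s3y was at 2.29 in ESCs and at 9.82 and 9.83 in the EpiSC groups, so ESCs and EpiSCs also differed in a sex-chromosome gene. Wnt release itself was not measured. Of genes of the Wnt pathway, Axin2 was not called for IWP2 minus vehicle (-0.16 log2, limma adjusted p = 0.191). Lef1 and Porcn were called lower (-1.28 and -0.998 log2, limma adjusted p = 1.51e-05 and 3.57e-05). Arrays carry no read depth, and their number limits the precision.

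Zic5 was measured by 3 probe sets, of which 1456219_at was the brightest. Its log2 signal was 9.10, 9.05 and 9.15 in ESCs, 10.83, 10.91 and 10.96 in EpiSCs with IWP2, and 10.15, 10.07 and 9.93 in EpiSCs with vehicle. The 3 groups did not overlap. Probe set 1456140_at gave 8.34, 8.36 and 8.46 in ESCs, 10.34, 10.33 and 10.40 with IWP2, and 9.57, 9.50 and 9.37 with vehicle. Probe set 1425666_at gave 6.14, 5.90 and 5.81 in ESCs, 7.84, 7.76 and 7.76 with IWP2, and 6.93, 6.90 and 7.08 with vehicle. Each of these sets had the same order of groups, again with no overlap between any of them. Here and below, the share of all genes with this order or without overlap was not counted.

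Zic2 was measured by 1 probe set, 1421301_at, so its values have no second probe set as a check. Its log2 signal was 6.14, 6.05 and 6.08 in ESCs, 7.53, 7.73 and 7.86 in EpiSCs with IWP2, and 7.08, 7.03 and 6.94 in EpiSCs with vehicle. The groups did not overlap here either, and the IWP2 arrays were the most spread out, with an SD of 0.17 against 0.048 in ESCs and 0.070 with vehicle.

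**Figure D1:**
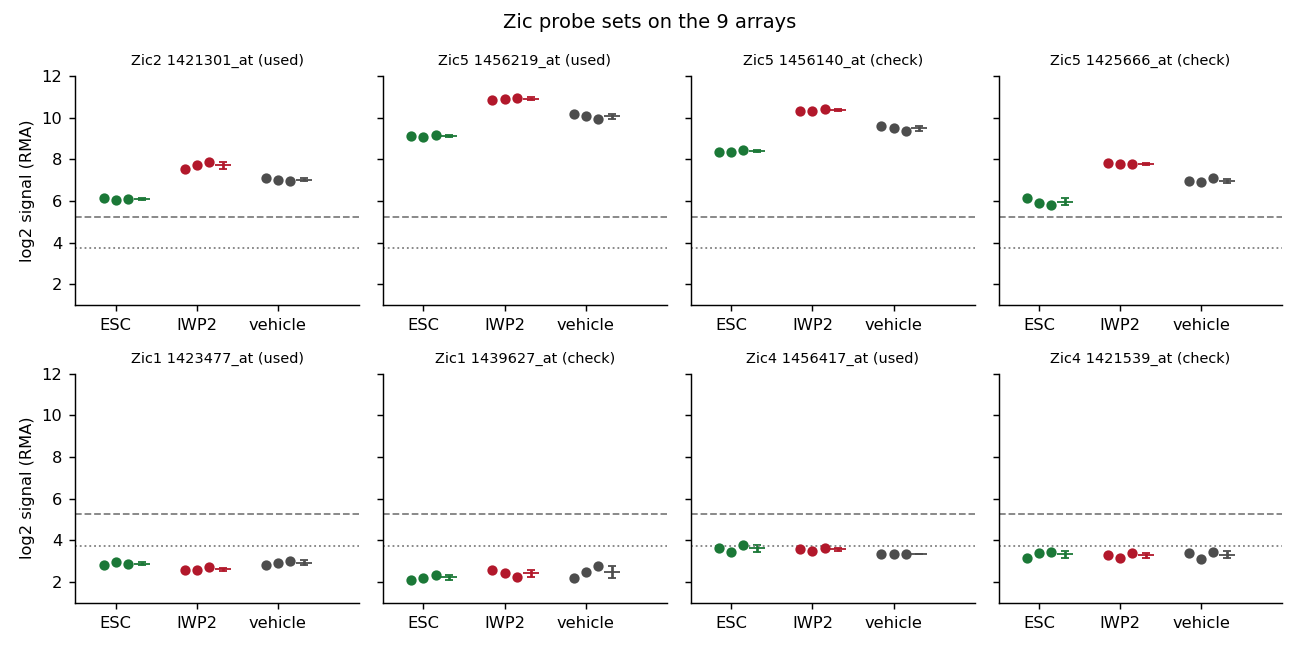
The log2 signal (vertical axis) of the 8 Zic probe sets is plotted for the 3 arrays of each group, with the group mean and SD beside the points; dashed and dotted lines mark the median (5.24) and lower quartile (3.72) of all values. The Zic2 and Zic5 probe sets lie above the median and step up from ESC to vehicle to IWP2, and 35 of the 36 values of the Zic1 and Zic4 probe sets lie below the lower quartile, the exception being a Zic4 value of 3.80 in ESC replicate 3.

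With IWP2, Zic5 averaged 10.90 ± 0.061 against 10.05 ± 0.12 with vehicle (log2 signal, SD, n = 3 each). It rose by 0.85 ± 0.070 log2 (SE, 95% interval 0.69 to 1.01), or 1.80-fold, with a limma adjusted p = 1.36e-05. Zic2 averaged 7.71 ± 0.17 with IWP2 against 7.02 ± 0.070 with vehicle, and rose by 0.69 ± 0.084 log2 (95% interval 0.50 to 0.88), or 1.62-fold, with a limma adjusted p = 0.000181. The 2 other Zic5 probe sets rose by 0.88 and 0.82 log2. Of all genes, 260 had a larger rise than Zic5 and 471 a larger rise than Zic2.

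Of the 4 Zic genes, 2 were called higher with IWP2 (adjusted p under 0.05) and 1 lower. Over all 18193 genes, 16.6% were called higher and 16.8% lower. The median difference of the 4 genes was 0.46 log2, against 0.033 over all genes, and 2 of the 4 had a mean at or above the overall median in their highest group. With 4 genes this median falls between Zic2 (0.69) and Zic4 (0.22), which was near the floor and not called. The 2 genes that rose lie at 1 locus, with the long non-coding RNA gene 2610035F20Rik between them.

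Other measures moved with the same comparison. Summed over the endoderm and primitive streak list, the linear signal was 205 to 218 on IWP2 arrays and 3669 to 4684 on vehicle arrays, and 8 of its 9 genes were called lower and 1 was not called. Over all genes, 16.6% were called higher and 16.8% lower, and the counts of the lists here were not tested against these shares. With IWP2 the means of Gsc and Lhx1 were below the lower quartile. The neural plate list summed to 2281 to 2418 with IWP2 and 3420 to 3697 with vehicle (2 of 14 higher, 5 lower, 7 not called). Its median difference was 0.034 log2, so the lower sum was not a fall of most of its genes. Its member Hesx1 averaged 3.15 log2 with IWP2 and 8.60 with vehicle. The dorsal neural tube and neural crest list summed to 1036 to 1085 with IWP2 and 601 to 714 with vehicle (2 of 13 higher, 4 lower). A linear sum follows its brightest genes, here Ets1 at 9.42 log2 with IWP2 and 7.78 with vehicle. The median difference of the crest list was 0.071 log2. Pax7, Tfap2b, Wnt1 and Lmx1a of the crest list, and Lhx2 and En1 of the neural plate list, were below the lower quartile in both EpiSC groups, and Hesx1 and En2 with IWP2 alone. The fibroblast and feeder list summed to 386 to 450 with IWP2 and 583 to 814 with vehicle (2 of 8 higher, 4 lower), and Lum and Pdgfra were below the lower quartile with IWP2. For the actin controls, 3' signal minus 5' signal, a sign of RNA quality, was 0.64 to 0.689 log2 on IWP2 arrays and 0.533 to 0.587 on vehicle arrays. The Gapdh controls overlapped, at -0.0321 to 0.0025 log2 on IWP2 arrays and -0.0554 to -0.0248 on vehicle arrays. The part of each of these in the Zic2 and Zic5 rises was not tested. In bulk RNA, fewer cells of a type and less RNA per cell cannot be told apart.

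In ESCs, Zic5 averaged 9.10 ± 0.048 against 10.05 ± 0.12 in EpiSCs with vehicle (log2 signal, SD, n = 3 each). It was lower by 0.95 log2, a difference of -0.95 ± 0.070 (SE, 95% interval -1.11 to -0.79) with a limma adjusted p = 9.88e-07. Zic2 averaged 6.09 ± 0.048 in ESCs against 7.02 ± 0.070, a difference of -0.93 ± 0.084 log2 (95% interval -1.11 to -0.74, limma adjusted p = 4.79e-06). Vehicle EpiSCs thus had 1.93 times the ESC signal for Zic5 and 1.90 times for Zic2. The 2 other Zic5 probe sets differed by -1.09 and -1.02 log2. Of the 4 genes, 2 were called lower in ESCs and 1 higher, where 27.9% of all genes were called lower and 38.7% higher. The median over all genes was 0.12 log2, and both differences lie below it. That median was not a shift of whole arrays. The array medians were 5.221 to 5.235 log2 in ESCs and 5.252 to 5.261 with vehicle. The lower quartiles were 3.788 to 3.801 in ESCs and 3.664 to 3.68 with vehicle. The endoderm and primitive streak list summed to a linear signal of 257 to 275 in ESCs and 3669 to 4684 in vehicle EpiSCs (8 of 9 lower, 1 not called), and the actin 3' minus 5' value was 0.639 to 0.665 log2 in ESCs and 0.533 to 0.587 with vehicle. The Gapdh values overlapped, at -0.0401 to 0.00352 log2 in ESCs and -0.0554 to -0.0248 with vehicle. The neural plate list summed to 5413 to 5670 in ESCs and 3420 to 3697 with vehicle (6 of 14 higher, 5 lower). Such a sum follows its brightest genes, here Sox2 at 12.15 in ESCs and 10.17 with vehicle (mean log2 signals). The median difference of the neural plate list was 0.14 log2. The dorsal neural tube and neural crest list summed to 380 to 391 in ESCs and 601 to 714 with vehicle, although 9 of its 13 genes were called higher in ESCs and 3 lower. Ets1 of the crest list averaged 3.48 in ESCs and 7.78 with vehicle. The fibroblast and feeder list summed to 193 to 201 in ESCs and 583 to 814 with vehicle (1 of 8 higher, 5 lower). In ESCs the means of Gsc, Lhx1, Lhx2, En1, Pax7, Tfap2b, Ets1, Wnt1, Lum and Pdgfra were below the lower quartile. The part of these in the Zic differences was not tested.

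Against EpiSCs with IWP2 the gap to ESCs was wider. Zic5 differed by -1.80 ± 0.070 log2 (SE, 95% interval -1.96 to -1.64, limma adjusted p = 7.29e-09) and Zic2 by -1.62 ± 0.084 log2 (95% interval -1.81 to -1.43, limma adjusted p = 6.4e-08). The signal with IWP2 was 3.48 times that in ESCs for Zic5 and 3.07 times for Zic2. Both were lower in ESCs by at least 2-fold, as were 9.4% of all genes, and 26.9% of all genes were called lower and 35.2% higher. Each step in the order ESC, vehicle, IWP2 was therefore called for both genes. The neural plate list summed to 5413 to 5670 in ESCs and 2281 to 2418 with IWP2 (4 of 14 higher, 4 lower). Its member Sox2 averaged 12.15 log2 in ESCs and 9.97 with IWP2, and the median difference of the list was 0.082 log2. The dorsal neural tube and neural crest list summed to 380 to 391 in ESCs and 1036 to 1085 with IWP2 (4 of 13 higher, 3 lower). Its member Ets1 averaged 3.48 log2 in ESCs and 9.42 with IWP2, and the median difference of the list was 0.19 log2. The fibroblast and feeder list summed to 193 to 201 in ESCs and 386 to 450 with IWP2 (0 of 8 higher, 3 lower), and the endoderm and primitive streak list to 257 to 275 in ESCs and 205 to 218 with IWP2 (3 of 9 higher, 0 lower). The part of these lists in the Zic differences was not tested. The 3 comparisons share their groups in pairs and are not independent of each other.

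**Figure D2:**
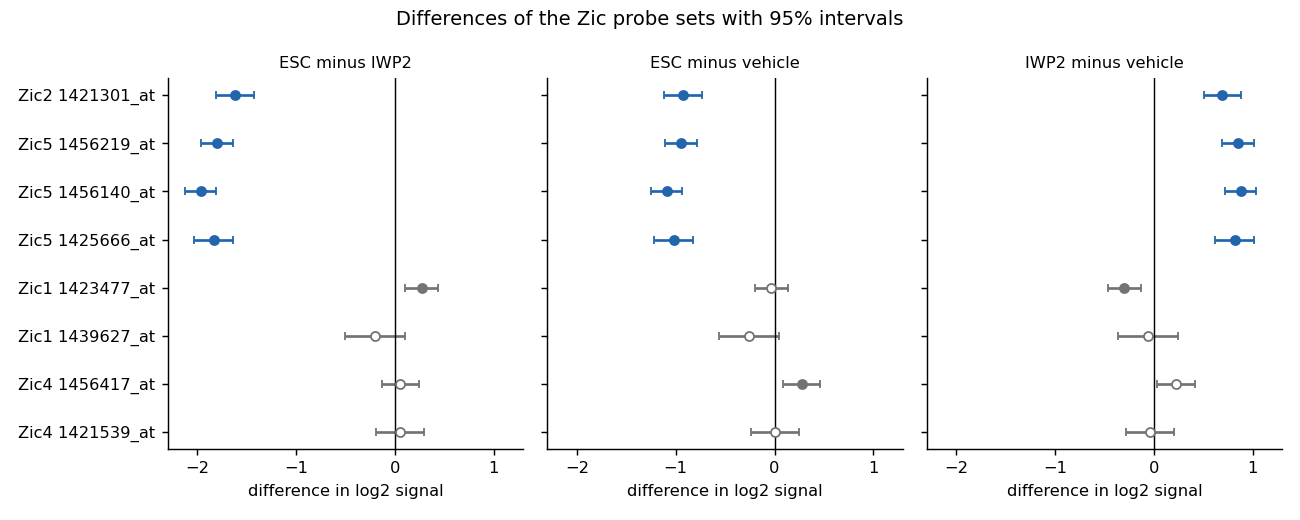
Differences in log2 signal (horizontal axis) are shown for the 8 Zic probe sets in the 3 comparisons, as points with 95% intervals from limma; filled points were called at an adjusted p under 0.05 among all probe sets with 1 symbol. The 4 Zic2 and Zic5 probe sets lie at -1.97 to -1.62 for ESC minus IWP2, -1.09 to -0.93 for ESC minus vehicle and 0.69 to 0.88 for IWP2 minus vehicle, whereas those of Zic1 and Zic4 lie close to 0.

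Zic2 and Zic5 changed by similar but not clearly equal amounts. The within-array difference of Zic5 minus Zic2 averaged 3.19 ± 0.11 log2 with IWP2 and 3.03 ± 0.047 with vehicle (SD, n = 3 each). The IWP2 rise of Zic5 was thus larger by 0.16 log2 (95% interval 0.0099 to 0.31 from the spread within the 3 groups). The exact two-sided permutation test gave p = 0.1, the smallest that 3 arrays against 3 allow, and 0.1125 after Benjamini-Hochberg adjustment over the 18 differences of this kind among the 4 genes. The within-array difference averaged 3.01 ± 0.056 in ESCs and 3.03 ± 0.047 in vehicle EpiSCs, and the unequal part was -0.023 log2 (95% interval -0.17 to 0.13, exact permutation p = 0.6). Between ESCs and EpiSCs with IWP2 it was -0.18 log2 (95% interval -0.33 to -0.033, exact permutation p = 0.1). With 32 added to the linear signals these values were 0.25, -0.22 and -0.47, since an offset shrinks the changes of the dimmer probe set more. With the next brightest Zic5 probe set they were 0.18, -0.16 and -0.35.

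Zic1 and Zic4 had signals next to the floor in every group. The Zic1 probe set 1423477_at gave 2.84, 2.94 and 2.88 in ESCs, 2.60, 2.55 and 2.70 with IWP2, and 2.80, 2.93 and 3.03 with vehicle. The fit called it lower with IWP2 (-0.30 log2, limma adjusted p = 0.00963) and higher in ESCs than with IWP2 (0.27, adjusted p = 0.00823). It did not call ESC minus vehicle (-0.032, adjusted p = 0.707). These differences lie among signals below the lower quartile. The other Zic1 probe set, 1439627_at, was at 2.11 to 2.35 in ESCs, 2.24 to 2.57 with IWP2 and 2.20 to 2.76 with vehicle, overlapped in all 3 comparisons and was called in 0 of them. In that fit of all probe sets with 1 symbol, 29.1% were called for IWP2 minus vehicle, 62.3% for ESC minus vehicle and 58.7% for ESC minus IWP2.

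Zic4 was at 3.63, 3.46 and 3.80 in ESCs, 3.58, 3.50 and 3.65 with IWP2, and 3.36, 3.34 and 3.35 with vehicle (probe set 1456417_at). Its ESC minus vehicle difference of 0.28 log2 was called (limma adjusted p = 0.0141), and its IWP2 minus vehicle difference of 0.22 was not (adjusted p = 0.0636). ESC minus IWP2 was 0.052 log2 (95% interval -0.13 to 0.24, adjusted p = 0.603). The other Zic4 probe set, 1421539_at, differed by 0.0079 log2 for ESC minus vehicle (adjusted p = 0.954) and -0.039 for IWP2 minus vehicle (adjusted p = 0.832), and its groups overlapped. The vehicle arrays of the brighter set differed from each other by very little (SD 0.012), and its values stay next to the lower quartile in every group. The lower quartile of an array was itself higher in ESCs (3.788 to 3.801) than with vehicle (3.664 to 3.68). The part of this in the Zic4 call was not tested.

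The promoter windows of 3 of the 4 genes are shown so that the start of a bright member can be set beside those of both dim ones. They are RefSeq sequence of GRCm38.p6, each from 250 bases before to 50 bases after the annotated start, read 5′ to 3′ on the gene's strand, with every CG pair in capitals. The Zic5 window is chr14:122465609-122465908 (minus strand), the Zic1 window chr9:91365719-91366018 (minus strand) and the Zic4 window chr9:91368722-91369021 (plus strand). The Zic2 window is not shown.
Zic5: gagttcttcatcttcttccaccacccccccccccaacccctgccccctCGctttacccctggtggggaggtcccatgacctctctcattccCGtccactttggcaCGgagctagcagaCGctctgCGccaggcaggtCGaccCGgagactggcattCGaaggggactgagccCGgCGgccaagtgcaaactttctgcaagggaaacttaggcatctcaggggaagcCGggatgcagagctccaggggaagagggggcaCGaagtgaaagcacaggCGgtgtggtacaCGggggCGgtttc
Zic1: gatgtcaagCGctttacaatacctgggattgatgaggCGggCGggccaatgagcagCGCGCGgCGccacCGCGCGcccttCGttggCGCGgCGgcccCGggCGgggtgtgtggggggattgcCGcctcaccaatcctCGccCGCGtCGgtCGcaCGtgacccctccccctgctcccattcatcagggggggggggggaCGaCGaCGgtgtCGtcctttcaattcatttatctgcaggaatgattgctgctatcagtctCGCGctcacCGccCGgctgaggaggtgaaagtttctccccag
Zic4: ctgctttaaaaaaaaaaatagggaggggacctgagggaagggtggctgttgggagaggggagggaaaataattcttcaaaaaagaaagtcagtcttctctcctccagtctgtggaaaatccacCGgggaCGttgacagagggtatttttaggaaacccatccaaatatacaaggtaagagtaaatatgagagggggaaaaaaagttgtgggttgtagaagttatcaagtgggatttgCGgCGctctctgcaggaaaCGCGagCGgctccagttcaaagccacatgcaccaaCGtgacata

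Zic5 had 15 CG pairs in its window, Zic1 had 31 and Zic4 had 8, against a median of 7 over 32851 promoter windows of this length. Of all windows, 65.4% held fewer CG pairs than that of Zic5, 89.4% fewer than that of Zic1 and 51.4% fewer than that of Zic4. The dim Zic1 thus had more CG pairs than the bright Zic5, and Zic4 had fewer. The letters CTTTGA on either strand, the core of the motif bound by the Tcf/Lef partners of beta-catenin, occurred 1 time in the Zic4 window, at position 273, and in 16.0% of all windows. They were not among the letters of the Zic5 and Zic1 windows. The Zic4 match is on the other strand and past the annotated start, and the printed letters there read tcaaag. The letters CCTGCTG on either strand, a core of published Zic motifs, occurred in 0 of the 3 windows and in 10.5% of all windows.

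Between Zic5 and Zic2 in the RefSeq gene order lies a long non-coding RNA gene, 2610035F20Rik, which has 1 probe set (1430350_at). It is outside the rule for named genes and was added because of its place. Its log2 signal was 3.64, 3.89 and 3.995 in ESCs, 5.15, 5.36 and 5.20 with IWP2, and 4.92, 4.95 and 4.46 with vehicle. It had the same order of groups as its neighbours, with no overlap, at signals below the overall median in 8 of 9 arrays. It rose with IWP2 by 0.46 ± 0.14 log2 (SE, limma adjusted p = 0.0273) and differed by -0.94 ± 0.14 between ESCs and vehicle EpiSCs (adjusted p = 0.000182). Its ESC minus IWP2 difference was -1.40 ± 0.14 log2 (adjusted p = 8.53e-06). The rise with IWP2 was not called without vehicle replicate 3 (0.30 log2, limma adjusted p = 0.0662), IWP2 replicate 2 (0.40, adjusted p = 0.0916) or IWP2 replicate 3 (0.48, adjusted p = 0.0612).

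Genes with a like pattern were sought by the root mean square distance between log2 values centred on each gene's mean over the 9 arrays. Among 10914 candidate genes whose highest group mean reached the overall median, those nearest to Zic5 were Raph1 (0.058 log2), Rnf13 (0.065) and Acsl4 (0.070). Nearest to Zic2 were Hmgn5 (0.059), Wwc2 (0.073) and Arhgap12 (0.086). Zic2 and Zic5 lay 0.10 log2 apart, and 9 candidates were closer to Zic5 than Zic2 was. The long non-coding RNA between them lay 0.20 from Zic2 and 0.23 from Zic5. Arhgap12 rests on 1 probe set: its next brightest differed by 0.28 log2 for ESC minus vehicle, against -0.95. The distance is a description over 9 arrays in 3 groups.

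**Figure D3:**
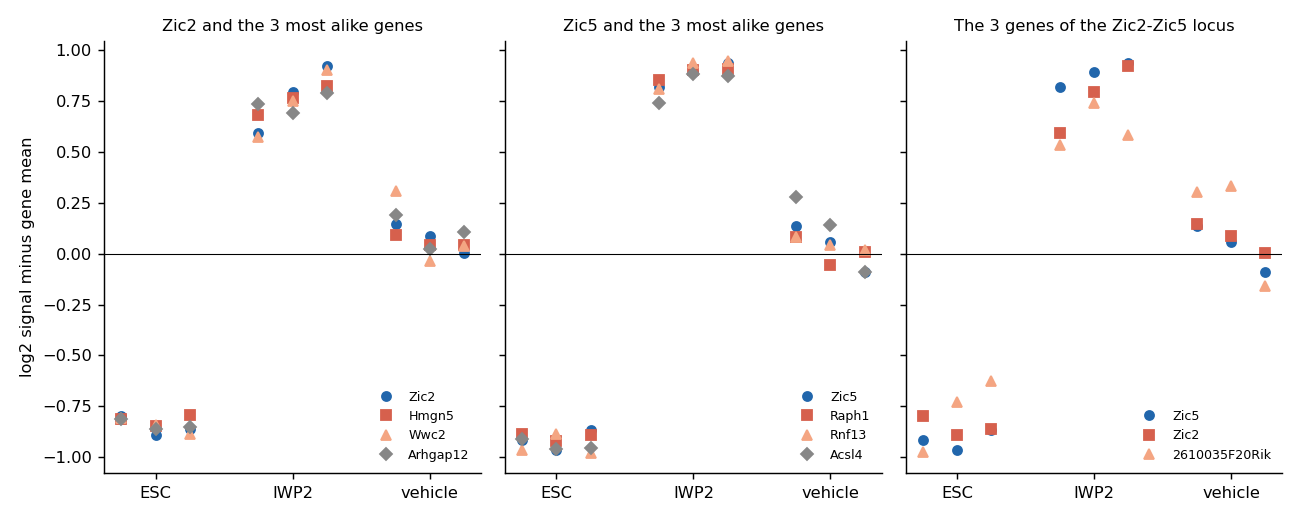
Log2 signal minus the gene's mean over the 9 arrays (vertical axis) is plotted for each array of the 3 groups. Zic2 and Zic5 lie on top of their 3 most alike genes, and in the right panel 2610035F20Rik follows the same order with a smaller gap between IWP2 and vehicle arrays.

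The related Gli and Glis genes were called in both directions. Of 6 measured, 2 were called higher and 3 lower with IWP2, where 16.6% of all genes were called higher and 16.8% lower. In ESCs 3 were called higher than in vehicle EpiSCs and 2 lower, where 38.7% of all genes were called higher and 27.9% lower. These counts of 6 genes are a description and were not tested against those shares. Gli1, a hedgehog target and activator, averaged 4.54 ± 0.25 with IWP2 against 6.23 ± 0.15 with vehicle (log2 signal, SD, n = 3 each), a difference of -1.69 (limma adjusted p = 6.89e-06). Gli2, the main activator of hedgehog targets, differed by -0.50 with IWP2 and by 1.84 for ESC minus vehicle, both opposite in sign to Zic2 and Zic5. Glis3 differed by -0.66 with IWP2 and by 0.68 for ESC minus vehicle, both called, at a mean below the lower quartile in both EpiSC groups. Glis1 differed by 0.25 for ESC minus vehicle, which was called, and by -0.042 with IWP2, which was not. Gli3, mostly a repressor, had the Zic order, with 7.15 ± 0.14 in ESCs, 9.24 ± 0.011 with IWP2 and 8.72 ± 0.091 with vehicle. Its differences were 0.52 for IWP2 minus vehicle and -1.57 for ESC minus vehicle. Glis2 had it too with the brightest probe set (0.36 log2 for IWP2 minus vehicle and -0.15 for ESC minus vehicle), but its next brightest gave 0.13 and 0.12, neither of them called. The Glis2 call for ESC minus vehicle was also lost when any of vehicle replicates 1 and 3 and the 3 ESC replicates was left out (limma adjusted p of 0.0579 to 0.104).

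**Figure D4:**
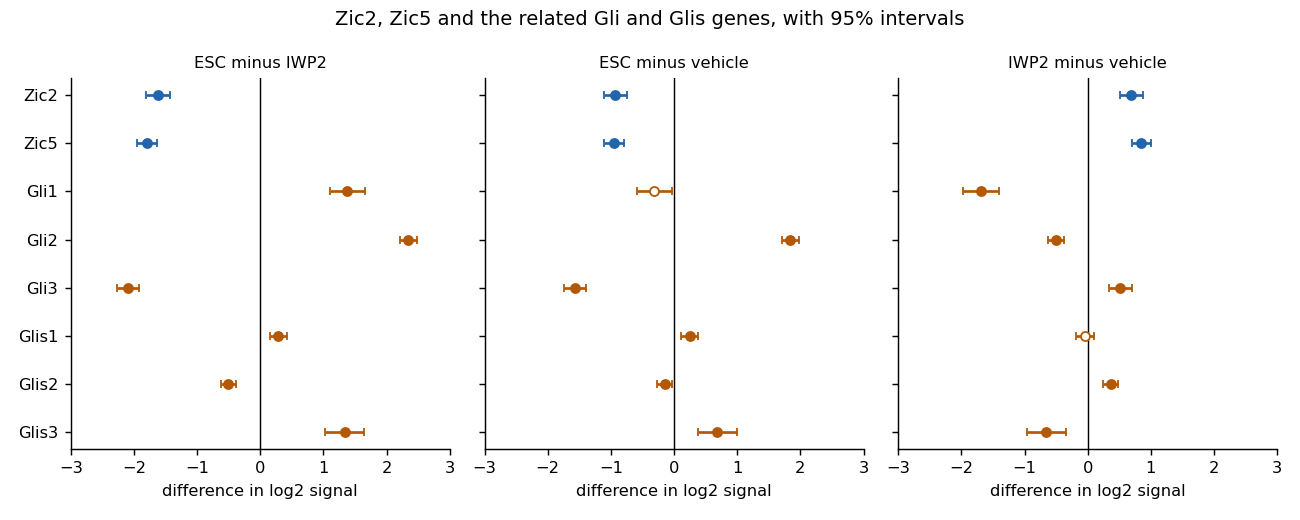
Differences in log2 signal (horizontal axis) with 95% intervals from limma are shown for Zic2, Zic5 and the 6 Gli and Glis genes in the 3 comparisons; filled points were called at an adjusted p under 0.05. Gli3 and Glis2 lie on the same side of 0 as Zic2 and Zic5 in all 3 panels, and Gli2, Glis1 and Glis3 on the other side in all 3.

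Primed and formative epiblast genes, a list without Zic genes, were mixed with IWP2. Of 17 measured, 8 were called higher and 6 lower, with a median of -0.021 log2, where 16.6% of all genes were called higher and 16.8% lower. Sox3, a SoxB factor of the epiblast and neural plate, rose by 1.37 and the growth factor gene Fgf15 by 1.58, whereas Fgf5 fell by 2.48 and Cd24a fell by 1.96. In ESCs 13 of the 17 were called lower than in vehicle EpiSCs and 4 higher, with a median of -1.42 log2, where 27.9% of all genes were called lower and 38.7% higher. The ESC minus vehicle differences of Zic5 (-0.95) and Zic2 (-0.93) were smaller in size than that median, and both genes kept signals above the overall median in ESCs, at 9.10 and 6.09. Node and left-right genes, a setting in which Zic genes act in the embryo, had 6 of 8 measured members called lower with IWP2 (16.8% of all genes) and 0 higher (16.6%), among them Shh (-6.65) and Foxa2 (-6.07). Zic2 and Zic5 thus differed in sign from all 6 of those called genes in that comparison.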

How the data were processed

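RNA of 9 cultures was hybridised to Affymetrix whole-genome mouse arrays. The authors deposited log2 values for 45101 probe sets, made with RMA per the submitters' processing notes, which also name limma, both without versions. Quantile normalization within RMA hides any change in the total RNA of a cell, and the table has no detection calls. Scan dates were not used here.

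Probe sets were named by the platform annotation: 34945 had 1 symbol, 932 had several, 64 were controls and the rest had none. For each of 18193 genes the probe set with the highest mean was kept. Group means were fitted to all 9 arrays with limma 3.58.1 in R 4.3.3 (two-sided, 6 residual degrees of freedom, 9.58 after moderation), with Benjamini-Hochberg adjustment over all genes and calls at an adjusted p under 0.05. Probe sets used as a check were tested in a fit of all 34945. The fit was tested on simulated data.

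The Zic genes and the gene lists were chosen with earlier results of these data known. Named genes were the Zic genes, up to 2 called members of a list per direction, 3 genes on each side of each locus, and the 3 most alike genes without Riken clones, Gm models and _x_at probe sets. Zfp42, Pou3f1 and Eif2s3y, as checks of the labels, Axin2, Lef1 and Porcn, as Wnt pathway genes, and 2610035F20Rik were named outside this rule.

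Replicates with the same number did not deviate together (correlations of -0.0596 to 0.0507 over the 3 comparisons), so no pairing was used. Alternatives tried were averaging a gene's probe sets, using the next brightest one, dropping dim genes, adding 32 to the linear signal, median centring, cyclic loess, trend and robust variances, fits of 2 groups alone, a replicate block, a stricter adjusted p of 0.01 and leaving out single arrays.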

Additional observations from a re-analysis of the deposited data

How the results depend on the processing

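The calls and directions of Zic2 and Zic5 held in all 3 comparisons under every alternative run (Zic2 has no other probe set to try), with the largest adjusted p at 0.00124, and the array left out made no difference to them. Their IWP2 minus vehicle differences ranged over the alternatives from 0.58 to 0.71 log2 for Zic2 and from 0.83 to 0.88 for Zic5, and without single arrays from 0.62 to 0.78 and from 0.79 to 0.90.

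The calls near the floor did not hold. For Zic1, IWP2 minus vehicle was -0.18 with the mean of its probe sets, -0.063 with the other probe set and -0.054 with an offset of 32, none of them called. ESC minus IWP2 was 0.036, -0.20 (reversed, not called) and 0.047 under the same settings. For Zic4, ESC minus vehicle was not called with the mean of its probe sets (0.14), the other probe set (0.0079), the offset (0.073), cyclic loess (0.13) or an adjusted p under 0.01 (0.28). IWP2 minus vehicle for Zic4 was called with arrays centred on their median (0.24, adjusted p = 0.0458), with only the arrays compared (0.22, adjusted p = 0.0275), with the replicate block (0.22, adjusted p = 0.0468) and without ESC replicate 2 or 3 (adjusted p = 0.0313 and 0.0301), and ranged from 0.19 to 0.26 without single arrays. The block changed no other call of a Zic gene. The cause was not tested.

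Zic5 minus Zic2 moved with the offset (0.25, -0.22 and -0.47 for IWP2 minus vehicle, ESC minus vehicle and ESC minus IWP2) and, in the comparisons with ESCs, with the next brightest Zic5 probe set (-0.16 and -0.35). Genes called numbered 6094, 12123 and 11298 in those comparisons. Testing all probe sets gave 10168, 21764 and 20510, since more features were tested, and an adjusted p under 0.01 gave 3886 for IWP2 minus vehicle. With the next brightest probe set ESC minus vehicle was reversed for Arhgap12 (0.28) and Glis2 (0.12), and ESC minus IWP2 for Pcca (0.021). Without detection calls, the lowest signal that differs from background is not known.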

Other observations

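The genes flanking the Zic loci were taken 3 to a side. Around Zic2 and Zic5, of 6 measured flanking genes, 1 was called higher with IWP2 than with vehicle, 2 lower and 3 not called, where 16.6% of all genes were called higher and 16.8% lower. Pcca, a subunit gene of the mitochondrial enzyme propionyl-CoA carboxylase, rose by 0.29 log2 (limma adjusted p = 0.01; 0.10 and not called with its next brightest probe set). Ggact differed by -0.19 (adjusted p = 0.036) and Tm9sf2 by -0.22 (adjusted p = 0.0118). The Ggact call was lost without vehicle replicate 2 or 3, IWP2 replicate 2 or 3 or ESC replicate 1 or 2 (adjusted p of 0.0505 to 0.119). For ESC minus vehicle, 1 of these 6 was called higher, Ggact at 0.61 log2, and 1 lower, Clybl at -0.19, a call lost without vehicle replicate 1 or 3 or any ESC replicate (adjusted p of 0.067 to 0.115). Over all genes, 38.7% were called higher and 27.9% lower in that comparison.

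Around Zic1 and Zic4, 1 of 6 flanking genes was called lower with IWP2, Tbc1d2b at -1.23 log2 (adjusted p = 2.66e-06), and 5 were not called. Over all genes, 16.6% were called higher and 16.8% lower with IWP2. In ESCs, 3 of the 6 were called higher than in vehicle EpiSCs and 1 lower, where 38.7% of all genes were called higher and 27.9% lower. These counts of few genes are a description and were not tested against those shares. Plscr1, a phospholipid scramblase gene, was at 8.57 in ESCs against 7.66 with vehicle (mean log2 signals, n = 3 each). Its neighbour Plscr2 was near the floor, at 2.06 in ESCs against 2.16 with vehicle.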
